A study of Homo sapiens with 6 samples.

Results

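The replication-dependent histone genes are the clustered, short histone genes that supply most of the H1, H2A, H2B, H3 and H4 protein packed onto newly copied DNA. Members were chosen by symbol, as H2AC, H2BC, H3C or H4C followed by digits only, or H1-1 to H1-6, with at least 20 counts summed over 6 libraries of 22Rv1 cells. Of 66 symbols with such a name among the 35322 in the count table, 53 were members, comprising 5 H1, 14 H2A, 15 H2B, 8 H3 and 11 H4 genes. They were thus selected on 1 measured value, the summed count. Just inside it were H2AC7, H2BC9 and H3C4 with 20 counts each, and just outside it were H3C11 with 19, H3C8 with 8 and H1-1 with 4. Of the 13 symbols left out, 7 had no counts at all.

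22Rv1 is a cell line established from a human prostate carcinoma. RNA was sequenced in 2 libraries each of control cells, labelled wild type, and of the knockdowns ZMYND11 kd1 (labelled ZM11-kd1) and ZMYND11 kd2 (labelled ZM11-kd2). ZMYND11 is a chromatin reader known for binding trimethylated lysine 36 of the replacement histone H3.3. The sample titles name no other treatment, and the labels do not name the hairpin behind each knockdown. The study's methods describe hairpin cells as infected with lentivirus, selected with puromycin and then held in less of it. The study describes its control cells for this experiment as carrying a control hairpin, whereas the label reads wild type. Whether the controls were infected and selected alike is therefore not known. Nothing in the sources used here says whether libraries of a group came from separate cultures, so the p-values below measure the spread between these libraries, which may be technical.

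In most cells these genes are transcribed in S phase, when NPAT, activated by cyclin E and CDK2, drives them at histone locus bodies. Their mRNAs end not in a poly(A) tail but in a conserved stem-loop, which stem-loop binding protein (SLBP) holds while the U7 small nuclear ribonucleoprotein directs the cut just after it. When DNA synthesis stops, the stem-loop mRNAs are normally degraded. Some members can also make longer, polyadenylated mRNAs from a site beyond the stem-loop, a form known from differentiated and non-dividing cells.

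A 3′ stem-loop was found in all 53 members in hg38 with GENCODE 44, starting 25 to 70 bases (median 38) after the coding sequence. The search covered 300 bases on the coding strand for GG, any 3 bases, T, a loop of 4, A, any 3 bases and CC, with all 6 pairs of the stem matched (G with T allowed). The loop also had to hold a T as its last base but 1, with at least 1 more T before that. The same search matched 14 of 19949 other protein-coding genes (0.0702%). The member with the highest summed counts in each class is shown, together with the other forms of the stem-loop, because an RNA that ends there lacks the tail that some library methods select. The stem-loop is in capitals, with 5 bases on either side.
H1-2: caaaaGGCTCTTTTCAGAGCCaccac
H2AC6: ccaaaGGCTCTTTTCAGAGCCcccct
H2BC21: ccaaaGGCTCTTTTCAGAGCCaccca
H3C10: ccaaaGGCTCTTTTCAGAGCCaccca
H2BC12: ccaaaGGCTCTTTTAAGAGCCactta
H4C8: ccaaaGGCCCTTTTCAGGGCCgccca
H4C9: aaaaaGGCCCTTTTTAGGGCCcctaa
H3C6: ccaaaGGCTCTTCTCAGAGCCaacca
H2AC11: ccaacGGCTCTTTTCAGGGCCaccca
H2AC20: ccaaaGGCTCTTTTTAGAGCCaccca
These stem-loops lie at chr6:26055744-26055759 on the minus strand (H1-2), chr6:26124669-26124684 on the plus strand (H2AC6), chr1:149886188-149886203 on the minus strand (H2BC21), chr6:27810516-27810531 on the plus strand (H3C10), chr6:27146366-27146381 on the minus strand (H2BC12), chr6:26285131-26285146 on the minus strand (H4C8), chr6:27139654-27139669 on the plus strand (H4C9), chr6:26225596-26225611 on the plus strand (H3C6), chr6:27133515-27133530 on the plus strand (H2AC11) and chr1:149887391-149887406 on the plus strand (H2AC20). The form of the first 4 was carried by 32 members of the H1, H2A, H2B and H3 classes. The form of H4C8 was carried by 7 H4 genes and that of H4C9 by the other 4. The form of H2BC12 was found in 7 members of H1, H2A and H2B, and H3C6, H2AC11 and H2AC20 each had a form of their own.

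The libraries held 26844128 to 38193748 counts. ZMYND11 had 4283 and 4179 counts in control cells against 770 to 941 in the knockdown libraries, with every knockdown library below both controls. Levels are given as CPM, the counts of a gene divided by the library total in units of 1e6 counts, with totals scaled by the TMM factors of edgeR, which correct for composition. All 9 prostate epithelial markers were at 1 CPM or more in every library. Basal, endothelial and leukocyte marker lists summed to under 1 CPM in every library, with CD3E at 0. The list of 4 fibroblast markers summed to 25.8 to 27.9 CPM in control cells, 77.6 to 78.0 in ZMYND11 kd1 and 31.4 to 33.5 in ZMYND11 kd2. Of these only COL1A1 was above 1 CPM in all libraries, at 23.8 and 23.9 CPM in control cells, 74.2 and 74.8 with ZMYND11 kd1 and 30.1 and 32.4 with ZMYND11 kd2. COL3A1 was at 0.676 to 1.02 CPM in control cells, 0.0294 to 0.270 in ZMYND11 kd1 and 0.0584 to 0.140 in ZMYND11 kd2, and DCN at 1.26 to 2.86, 2.47 to 2.50 and 0.532 to 0.555. The part of these markers in the histone results was not tested.

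Summed over the members, transcripts of the replication-dependent histone genes were more abundant in both knockdowns. The members summed to 260.2 and 251.4 CPM in the controls, 2803 and 2854 with ZMYND11 kd1 and 926.4 and 888.5 with ZMYND11 kd2. The mean sum was 11.1-fold the control in ZMYND11 kd1 and 3.55-fold in ZMYND11 kd2, and the knockdown libraries did not overlap the controls. As a share of all counts, members made up 0.0295% and 0.0283% in control cells, 0.249% and 0.25% with ZMYND11 kd1 and 0.0918% and 0.0902% with ZMYND11 kd2. Bulk RNA cannot tell more cells that express these genes apart from more histone RNA in each cell.

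**Figure D1:**
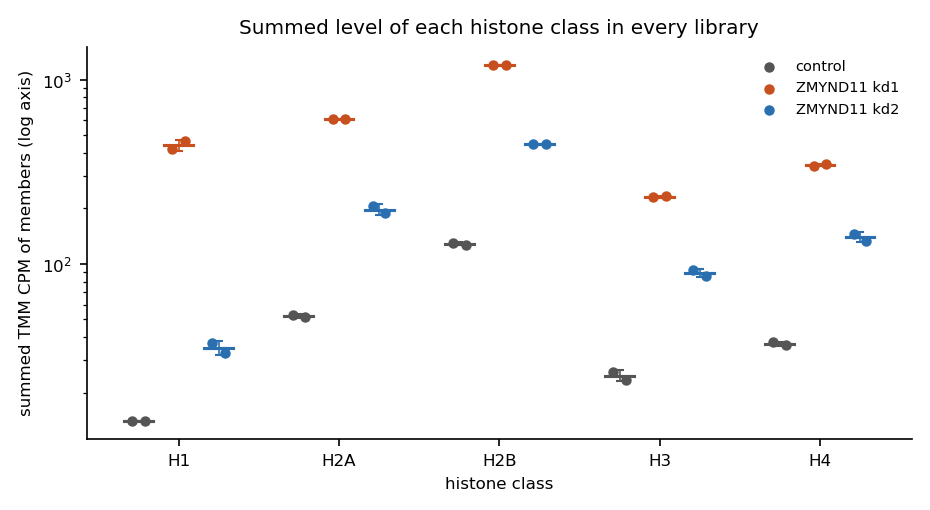
Summed TMM CPM of the members of each histone class (log axis), with a point for each library, the group mean as a line and the SD (n = 2) as an error bar. In all 5 classes ZMYND11 kd1 lies highest, ZMYND11 kd2 between, and control lowest.

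Of the 53 members, 40 passed edgeR's filter on low counts and were tested with its quasi-likelihood test, with p-values adjusted over all 16510 genes tested. In ZMYND11 kd1, 37 of these 40 were higher than in control cells, none was lower and 3 did not pass an adjusted p of 0.05, where 78.0% of all genes tested passed, 38.2% higher and 39.8% lower. H2BC13 was the tested member whose ZMYND11 kd1 estimate lay under 0 (-0.05). In ZMYND11 kd2, 24 were higher, 1 was lower (H2AC20) and 15 did not pass, where 73.4% of all genes passed, 36.5% higher and 36.9% lower. Members higher in both knockdowns numbered 22, where 25.6% of all genes tested were. Over the tested members the log2 fold change had a median of 2.65 with ZMYND11 kd1 and 1.36 with ZMYND11 kd2, against -0.03 for each over all genes tested.

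Some of the tested members reached the filter only through the libraries in which they were high, so these counts describe the tested members and are no evidence for the whole group. A total of 27 members reached the filter's minimum in both control libraries. Of these, 27 were higher in ZMYND11 kd1 (median log2 fold change 3.03), whereas 19 were higher, 1 was lower and 7 did not pass in ZMYND11 kd2 (median 1.37). These 27 carried 98.8% of the summed control level.

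**Figure D2:**
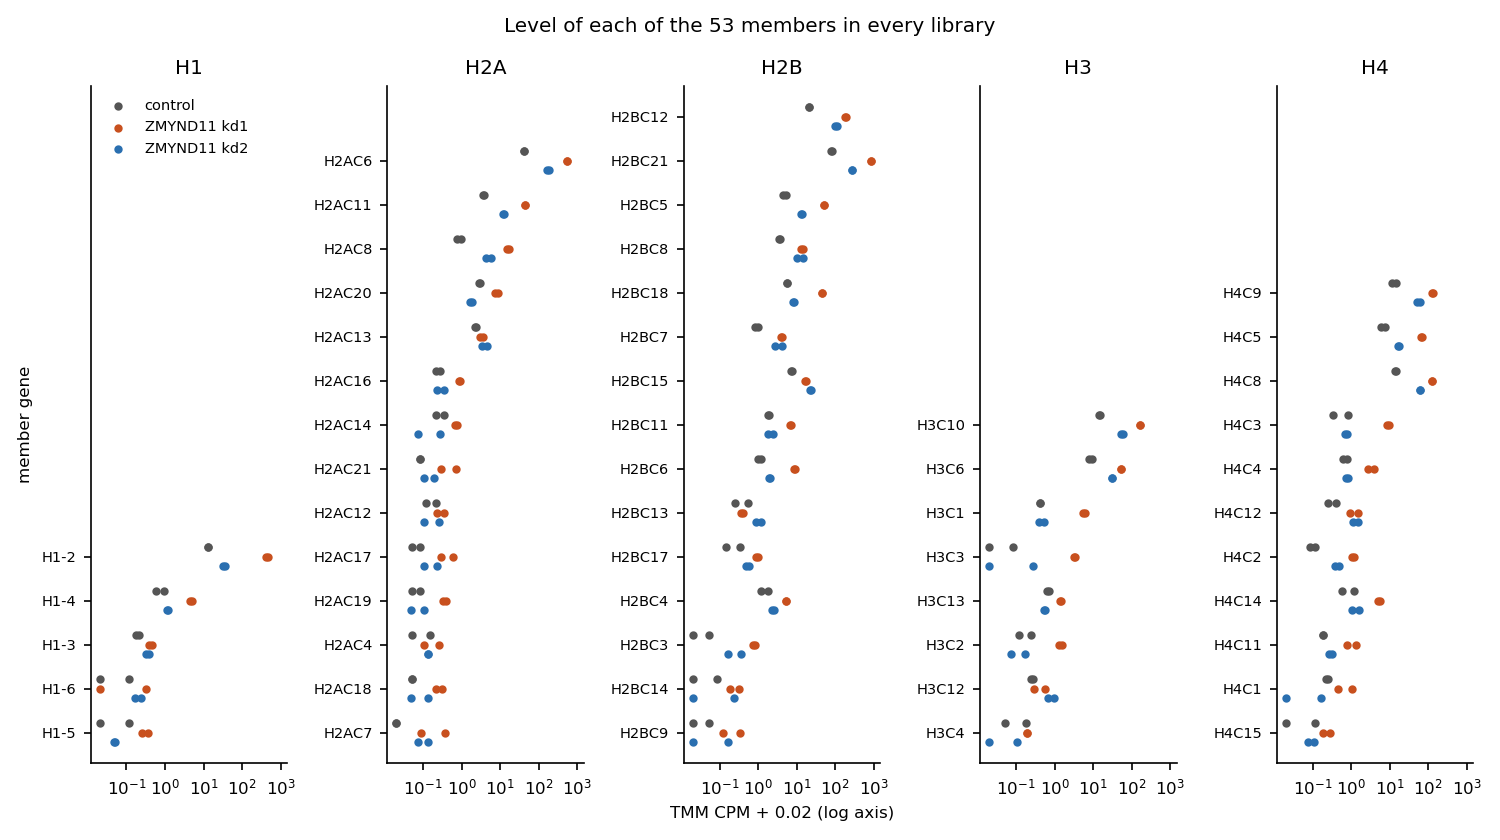
TMM CPM plus 0.02 (log axis) of all 53 members by class, ordered by level per kb of exon, with a point for each library. Many of the higher members run from control over ZMYND11 kd2 to ZMYND11 kd1, but H2BC8 overlaps between the knockdowns, H2BC15 is highest in ZMYND11 kd2 and H2AC20 is lowest there, and members near the bottom of each panel rest on few counts.

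Histone H4, with H3, forms the core tetramer of the nucleosome. The 11 H4 members encode a single protein sequence, as translated from the annotated coding sequences. They summed to 37.5 and 36.1 CPM in control cells, 340.0 and 347.8 with ZMYND11 kd1 and 146.0 and 133.3 with ZMYND11 kd2. All 10 tested H4 genes were higher in ZMYND11 kd1 and 5 were higher in ZMYND11 kd2, where 38.2% and 36.5% of all genes tested were. Some of the 10 passed the filter only through libraries in which they were high. Of the 6 at the filter's minimum in both control libraries, 6 were higher in ZMYND11 kd1 and 3 in ZMYND11 kd2. H4C8 and H4C9 together held 74.1% of the control sum.

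H4C9, at chr6:27139282-27139678 on the plus strand, had the highest H4 level per kb of exon. It was at 14.6 and 11.7 CPM in control cells, 124.6 and 129.4 with ZMYND11 kd1 and 61.7 and 50.2 with ZMYND11 kd2. Its groups did not overlap, and the log2 fold change was 3.27 ± 0.11 (SE, adjusted p = 2.18e-12, edgeR) in ZMYND11 kd1 and 2.09 ± 0.11 (SE, adjusted p = 3.57e-10, edgeR) in ZMYND11 kd2. H4C8, which has a spliced transcript reaching 7522 bases past its stem-loop, stood at 14.3 and 14.0 CPM in control cells, 128.8 and 128.4 with ZMYND11 kd1 and 62.7 and 60.9 with ZMYND11 kd2. Its log2 fold changes, 3.19 and 2.13, were close to those of H4C9, whose annotated transcript ends 9 bases past the stem-loop. H4C5 was at 5.85 and 7.34 CPM in control cells, 65.6 and 67.4 with ZMYND11 kd1 and 16.5 and 17.4 with ZMYND11 kd2, higher by 3.33 ± 0.10 and 1.36 ± 0.11 (log2 fold change ± SE).

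The scarcer H4 genes rested on few control counts. H4C2, the H4 member with the highest mean log2 fold change, had 3 and 2 counts in control cells, 39 and 30 with ZMYND11 kd1 and 17 and 12 with ZMYND11 kd2, and passed in both (adjusted p = 5.94e-05 and 0.00745, edgeR). The ZMYND11 kd2 call of H4C2 was lost without control replicate 2 (log2 fold change 2.03) or ZMYND11 kd2 replicate 1 (2.05). H4C1, with the lowest such mean, had 6 and 7 counts in control cells, 36 and 13 with ZMYND11 kd1 and 0 and 5 with ZMYND11 kd2. Its ZMYND11 kd1 call (adjusted p = 0.0284, edgeR) was lost under 7 alternatives, among them the DESeq2 test, library totals and the omission of control replicate 1, control replicate 2 or ZMYND11 kd1 replicate 1. H4C3 stood out for the gap between the knockdowns, with 24 and 10 counts in control cells, 290 and 278 with ZMYND11 kd1 but 28 and 23 with ZMYND11 kd2.

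Histone H3 members, of which 7 of 8 encode an identical protein, summed to 25.9 and 23.5 CPM in control cells, 229.1 and 233.8 with ZMYND11 kd1 and 92.3 and 86.2 with ZMYND11 kd2. Of 7 tested, 6 were higher in ZMYND11 kd1 and 3 in ZMYND11 kd2. For ZMYND11 kd2 that is near the 36.5% of all genes tested and so no result about the class. In ZMYND11 kd1, 38.2% of all genes tested were higher. Of the 4 H3 members at the filter's minimum in both control libraries, 4 were higher in ZMYND11 kd1 and 2 in ZMYND11 kd2. H3C10 and H3C6 held 93.6% of the control sum between them. H3C10, at chr6:27810051-27811300 on the plus strand, was at 15.2 and 13.9 CPM in control cells, 164.5 and 167.8 with ZMYND11 kd1 and 59.6 and 53.9 with ZMYND11 kd2. Its log2 fold change was 3.51 ± 0.07 (SE, adjusted p = 4.24e-14, edgeR) and 1.96 ± 0.08 (SE, adjusted p = 1.72e-11, edgeR), with 2.51 in ZMYND11 kd1 under the GC and length correction. H3C6 was at 9.10 and 7.99 CPM in control cells, 52.5 and 53.3 with ZMYND11 kd1 and 30.6 and 30.3 with ZMYND11 kd2, and the log2 fold change between the knockdowns was -0.80 ± 0.07 (SE) against -1.55 ± 0.06 for H3C10, or -0.33 against -0.76 with that correction.

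H3C1, next by level per kb, had 12 and 12 counts in control cells, 180 and 186 with ZMYND11 kd1 and 18 and 13 with ZMYND11 kd2. It was higher in ZMYND11 kd1 by 3.88 ± 0.29 (log2, SE), and its ZMYND11 kd2 libraries overlapped the controls. H3C3 had 2 and 0 counts in control cells, 110 and 99 with ZMYND11 kd1 and 9 and 0 with ZMYND11 kd2. Its depth-scaled count ratio to control was 101.1 (95% counting interval 27.6 to 840.2) in ZMYND11 kd1 and 3.95 (0.819 to 37.6) in ZMYND11 kd2, and such intervals cover counting error only. H3C13, on chromosome 1, had 19 and 21 counts in control cells, 46 and 42 with ZMYND11 kd1 and 20 and 18 with ZMYND11 kd2. Its ZMYND11 kd1 call (adjusted p = 0.0136, edgeR) was lost under 6 alternatives, the GC and length correction, library totals, DESeq2 and the omission of control replicate 1, control replicate 2 or ZMYND11 kd1 replicate 2.

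Histone H2B pairs with H2A in the dimers that flank the H3-H4 tetramer, and its members held 50.1% of the summed control level. They summed to 129.9 and 126.5 CPM in control cells, 1202 and 1199 with ZMYND11 kd1 and 444.8 and 448.7 with ZMYND11 kd2. Of 13 tested, 12 were higher in ZMYND11 kd1 and 11 in ZMYND11 kd2, where 38.2% and 36.5% of all genes tested were. Some of the 13 passed the filter only through libraries in which they were high. Of the 10 at its minimum in both control libraries, 10 were higher in ZMYND11 kd1 and 9 in ZMYND11 kd2. H2BC21, at chr1:149884459-149886682 on the minus strand, was the most abundant member by counts, with 81.0 and 77.95 CPM in control cells, 859.7 and 859.5 with ZMYND11 kd1 and 270.1 and 275.4 with ZMYND11 kd2. This gave log2 fold changes of 3.44 ± 0.05 (SE, adjusted p = 5.69e-15, edgeR) and 1.78 ± 0.05 (SE, adjusted p = 1.39e-12, edgeR).

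H2BC12, at chr6:27146361-27146855 on the minus strand, had the highest H2B level per kb of exon. It stood at 21.5 and 20.9 CPM in control cells, 185.6 and 184.6 with ZMYND11 kd1 and 108.5 and 100.8 with ZMYND11 kd2, and the log2 fold change between the knockdowns was -0.82 ± 0.06 (SE) against -1.66 ± 0.05 for H2BC21, or -0.19 against -1.48 with the GC and length correction. A near-copy, H2BC12L, shares stretches of at least 100 bases with it, covering 58.0% of its exonic bases with those of a further gene, so its counts are uncertain. H2BC5 was at 5.19 and 4.54 CPM in control cells, 50.8 and 51.0 with ZMYND11 kd1 and 13.2 and 14.0 with ZMYND11 kd2. H2BC3 had 0 and 1 counts in control cells, 28 and 21 with ZMYND11 kd1 and 12 and 5 with ZMYND11 kd2. The H2BC3 count ratio to control was 47.4 (95% counting interval 8.12 to 1910) in ZMYND11 kd1 and 14.9 (2.34 to 624.3) in ZMYND11 kd2. With single libraries left out, its log2 fold change ranged from 4.42 to 7.66 in ZMYND11 kd1 and from 2.77 to 6.01 in ZMYND11 kd2. The ZMYND11 kd2 call of H2BC3 was lost without control replicate 1 or ZMYND11 kd2 replicate 1.

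Some H2B genes were higher in ZMYND11 kd2 than in ZMYND11 kd1. H2BC13 had 7 and 16 counts in control cells, 13 and 10 with ZMYND11 kd1 and 31 and 39 with ZMYND11 kd2, overlapping control in the first and above it in the second (adjusted p = 0.942 and 0.0177, edgeR). The second call was lost with DESeq2 and without control replicate 1 or ZMYND11 kd2 replicate 2, and its call between the knockdowns (adjusted p = 0.0159, edgeR) without either ZMYND11 kd1 library or ZMYND11 kd2 replicate 2. H2BC15, which has spliced transcripts reaching 16604 bases past its stem-loop, was at 7.56 and 7.34 CPM in control cells, 17.8 and 16.7 with ZMYND11 kd1 and 24.1 and 22.8 with ZMYND11 kd2. H2BC18, on chromosome 1, showed the opposite, at 5.75 and 5.64 CPM in control cells, 46.6 and 46.4 with ZMYND11 kd1 and only 7.92 and 8.35 with ZMYND11 kd2. The groups did not overlap for H2BC18, while 47.7% of its exonic bases are in stretches shared with other genes.

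Histone H2A members summed to 52.9 and 51.3 CPM in control cells, 612.4 and 611.5 with ZMYND11 kd1 and 206.0 and 187.5 with ZMYND11 kd2. All 7 tested were higher in ZMYND11 kd1, 4 were higher and 1 lower in ZMYND11 kd2, while the other 7 members had too few counts to test. Over all genes tested 38.2% were higher in ZMYND11 kd1, and 36.5% higher and 36.9% lower in ZMYND11 kd2. Some of the 7 passed the filter only through libraries in which they were high. Of the 5 at its minimum in both control libraries, 5 were higher in ZMYND11 kd1, and 4 higher and 1 lower in ZMYND11 kd2. H2AC6, at chr6:26124145-26139116 on the plus strand, held 79.6% of the control sum. It stood at 42.4 and 40.5 CPM in control cells, 538.8 and 534.8 with ZMYND11 kd1 and 182.2 and 162.5 with ZMYND11 kd2, with log2 fold changes of 3.69 ± 0.07 (SE, adjusted p = 1.35e-14, edgeR) and 2.05 ± 0.06 (SE, adjusted p = 2.73e-12, edgeR). H2AC11 was at 3.81 and 3.61 CPM in control cells, 43.51 and 43.98 with ZMYND11 kd1 and 11.98 and 12.99 with ZMYND11 kd2. H2AC8, the H2A member with the highest mean log2 fold change, had 22 and 30 counts in control cells, 518 and 511 with ZMYND11 kd1 and 206 and 147 with ZMYND11 kd2, higher by 4.26 ± 0.21 and 2.57 ± 0.23 (log2, SE).

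H2AC20, on chromosome 1, was the member called in opposite directions, and it was singled out after its values were seen. It had 84 and 93 counts in control cells, 249 and 266 with ZMYND11 kd1 and 59 and 64 with ZMYND11 kd2. It was higher in ZMYND11 kd1 by 1.5 ± 0.18 (log2, SE, adjusted p = 2.2e-06, edgeR) and lower in ZMYND11 kd2 (log2 fold change -0.71 ± 0.21 SE, adjusted p = 0.00729, edgeR), with no overlap between any of the groups. H2AC14, with the lowest mean log2 fold change of the tested H2A genes, had 6 and 10 counts in control cells, 25 and 19 with ZMYND11 kd1 and 2 and 9 with ZMYND11 kd2. Its ZMYND11 kd1 call (adjusted p = 0.0464, edgeR) was lost under 9 alternatives, including the omission of any control or ZMYND11 kd1 library. H2AC13 had 73 and 67 counts in control cells, 123 and 88 with ZMYND11 kd1 and 118 and 159 with ZMYND11 kd2, and its ZMYND11 kd1 estimate of 0.54 (adjusted p = 0.0465, edgeR) lost its call under 7 alternatives and turned to -0.09 with the GC and length correction.

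Histone H1 binds the linker DNA between nucleosomes. Its members summed to 14.0 and 14.0 CPM in control cells, 419.3 and 462.3 with ZMYND11 kd1 and 37.3 and 32.9 with ZMYND11 kd2, so that the class held 5.47% of the summed member level in control cells, 15.6% in ZMYND11 kd1 and 3.87% in ZMYND11 kd2. Most of it was H1-2, at chr6:26055740-26056470 on the minus strand, which supplied 98.8% of the H1 sum in ZMYND11 kd1. H1-2 had 389 and 408 counts in control cells, 14041 and 13535 with ZMYND11 kd1 and 1269 and 1073 with ZMYND11 kd2. Its log2 fold change was 5.07 ± 0.08 (SE, adjusted p = 6.11e-15, edgeR) in ZMYND11 kd1 and 1.37 ± 0.08 (SE, adjusted p = 2.23e-09, edgeR) in ZMYND11 kd2. H1-4 had 28 and 18 counts in control cells, 170 and 129 with ZMYND11 kd1 and 42 and 38 with ZMYND11 kd2, and passed in ZMYND11 kd1 (adjusted p = 4.46e-07, edgeR) but not in ZMYND11 kd2 (adjusted p = 0.0992, edgeR). H1-3 had 5 to 15 counts in every library and passed in neither knockdown. H1-5 and H1-6 were not tested, with at most 10 counts in any library. Over all classes, the 13 members not tested had between 20 and 44 counts in total.

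The knockdowns were then compared directly, in the same fit. In ZMYND11 kd2, 31 of the 40 tested members were lower than in ZMYND11 kd1, 2 were higher (H2BC13 and H2BC15) and 7 did not pass, where 68.8% of all genes tested passed, 33.8% lower and 34.9% higher. Some of the 40 passed the filter through ZMYND11 kd1, where they were high. Of the 27 at the minimum in both control libraries, 23 were lower, 1 was higher (H2BC15) and 3 did not pass (median log2 fold change -1.69). The median log2 fold change of ZMYND11 kd2 against ZMYND11 kd1 was -1.67 over the tested members and 0.02 over all genes tested. The class sums of ZMYND11 kd2 were 0.0797 of those of ZMYND11 kd1 for H1, 0.322 for H2A, 0.372 for H2B, 0.386 for H3 and 0.406 for H4. The largest gaps among members with at least 10 counts in each control library were in H1-2 and H3C1 (-3.70 ± 0.07 and -3.70 ± 0.27, log2 fold change ± SE), followed by H4C3 (-3.61 ± 0.26). With the GC and length correction H4C3 came first at -3.31, with H1-2 at -3.08 and H3C1 at -3.02. Among the 7 others were H2BC7, H2BC8 and H4C12, whose log2 fold changes were -0.23 ± 0.22, -0.16 ± 0.14 and 0.08 ± 0.37 (SE). For ZMYND11 itself, the log2 fold change of ZMYND11 kd2 against ZMYND11 kd1 was -0.28 ± 0.07 (SE, adjusted p = 0.00265, edgeR).

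**Figure D3:**
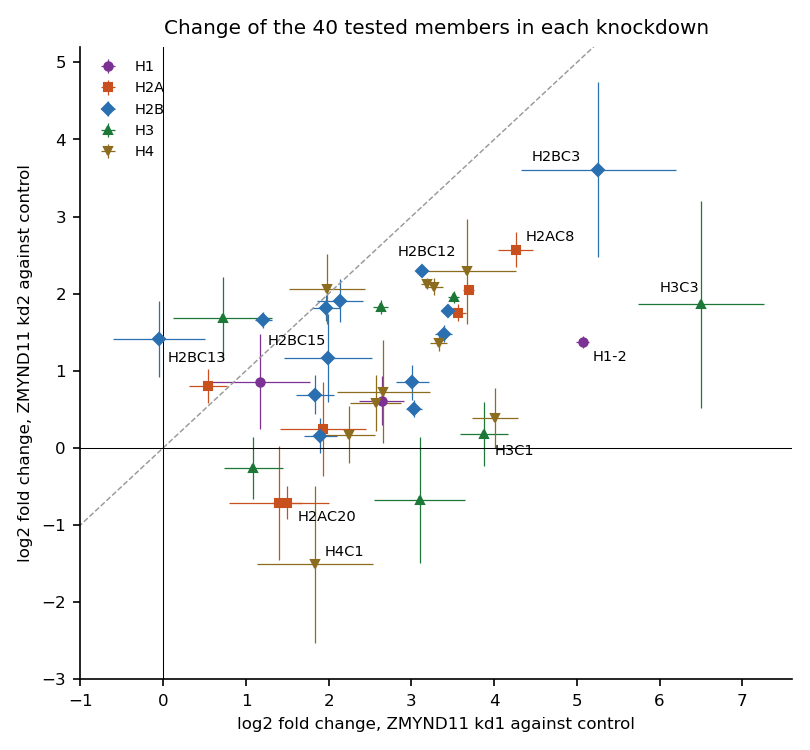
Log2 fold change against control of the 40 tested members in ZMYND11 kd1 (horizontal) and ZMYND11 kd2 (vertical), with 1 SE as error bars and equal change as the dashed line. Both axes share the control libraries. Most members lie below the line, H1-2 far to the right, and H2AC20 is right of 0 but below it on the vertical axis.

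The members lie in a large cluster on chromosome 6, with 44 genes between positions 26020451 and 27893891, and a smaller group of 9 on chromosome 1 between 149782689 and 149887965. On chromosome 6, 32 of 35 tested members were higher in ZMYND11 kd1 and 22 in ZMYND11 kd2. On chromosome 1, all 5 tested were higher in ZMYND11 kd1 (median log2 fold change 2.57) and 2 in ZMYND11 kd2 (median 0.51), with H2AC20 lower. The latter 2 of 5 is near the 36.5% of all genes tested that were higher in ZMYND11 kd2, and the chromosomes were not tested against each other. H2A and H2B genes often sit head to head and share the DNA between their start sites. With start sites within 1000 bases on the annotation there were 9 such pairs, plus H3C12 with H2BC17, and in 6 of these 10 both genes were tested. Both genes were higher in 4 of these 6 pairs in ZMYND11 kd1 and in 3 in ZMYND11 kd2. Gene by gene, 38.2% and 36.5% of all genes tested were higher, and no such share was computed for pairs. H2BC13, H2BC17 and H3C12, which are in these pairs, did not reach the filter's minimum in both control libraries.

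Neighbours across a shared interval did not always move by like amounts. H2BC21 and H2AC20 have 235 bases between their start sites, and in ZMYND11 kd2 their log2 fold changes were 1.78 and -0.71. H2BC11 and H2AC11 have 247 bases between them, with 0.16 and 1.75 in ZMYND11 kd2 and 1.90 and 3.56 in ZMYND11 kd1. H2BC8 and H2AC8, with 232 bases between them, had 1.81 and 2.57 in ZMYND11 kd2. The octamer, a known binding element of OCT1, is a hallmark of H2B promoters, so it is shown in capitals with 10 bases on either side for 4 such intervals.
H2BC21: cggagccctaATTTGCATaaggtggtta
H2BC12: tcttcaccttATTTGCATgagaggtcct
H2AC6: gggcagagctATGCAAATgaggtatgaa
H2AC8: taggcctttcATGCAAATaaagaattca
Each is written on its own gene's strand from RefSeq (GRCh38.p14). The octamers lie at chr1:149886721-149886728, chr6:27146897-27146904, chr6:26124042-26124049 and chr6:26216729-26216736. The first is in the interval between H2BC21 and H2AC20, and the last 2 read in reverse, since they match on the strand of the neighbours H2BC4 and H2BC8.

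RefSeq promoters, taken as 250 bases before to 50 after the start, matched 49 of the 53 members. The octamer ATTTGCAT, searched on both strands, was present in 23 of 49, in 12 of 15 H2B and 10 of 13 H2A genes but in 0 of 9 H4 genes, against 1.77% of all 35116 promoters. CCAAT was present in 41 of 49 against 34.6%, in every matched promoter of the other classes but in only 1 of 9 H4 genes. TATAAA was present in 34 of 49 against 11.5%, with both searched on either strand. None of these letters contains another.

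Whether a member's RNA carries a poly(A) tail bears on how these libraries captured it, and the methods name both poly(A) isolation and a kit that removes rRNA, leaving unsaid which applied here. For 13 members, GENCODE lists a transcript reaching more than 50 bases past the stem-loop. Of the 12 of these tested, 12 were higher in ZMYND11 kd1 and 10 in ZMYND11 kd2, with median log2 fold changes of 3.02 and 1.57. Of 28 tested among the 40 members without such a transcript, 25 were higher in ZMYND11 kd1, whereas 14 were higher and 1 lower in ZMYND11 kd2, with medians of 2.45 and 1.26. Over all genes tested 38.2% were higher in ZMYND11 kd1, and 36.5% higher and 36.9% lower in ZMYND11 kd2. The 13 with longer transcripts held 71.0% of the summed control level. All 7 members known also as polyadenylated mRNA (H1-2, H2AC6, H2BC4, H2BC5, H2BC12, H2BC21 and H4C8) were higher in both knockdowns, with medians of 3.39 and 1.78, where 25.6% of all genes tested were higher in both. Of the 33 other tested members, 30 were higher in ZMYND11 kd1 (median 2.57), whereas 17 were higher and 1 lower in ZMYND11 kd2 (median 0.86), and 15 were higher in both. Of the 7, H2BC4 lost its ZMYND11 kd2 call (log2 fold change 0.69) under library totals (0.52), without control replicate 1 (0.40) and without ZMYND11 kd2 replicate 2 (0.57).

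A list of 11 RNAs made without a poly(A) tail, chosen after the data had been seen, summed to 10.1 and 8.60 CPM in control cells, 32.4 and 35.3 with ZMYND11 kd1 and 19.1 and 14.1 with ZMYND11 kd2. Only RN7SL1, the RNA of the signal recognition particle, and RNU6-1, a copy of the U6 spliceosomal RNA, had counts enough to test. RN7SL1 had 296 and 262 counts in control cells, 1011 and 980 with ZMYND11 kd1 and 548 and 398 with ZMYND11 kd2, higher by 1.79 ± 0.13 and 0.57 ± 0.14 (log2, SE), the second being 0.89 with the GC and length correction. RNU6-1 had 10 and 3 counts in control cells, 51 and 45 with ZMYND11 kd1 and 105 and 77 with ZMYND11 kd2. Both rose in both knockdowns, and both have many near-copies in the genome that could share their reads. The part of RNA capture in the histone result was not tested. RN7SK, RMRP, RPPH1, TERC and SCARNA2 were listed at 0 in every library.

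Genes linked to histone supply were read as lists by function. All 20 S phase genes listed were lower in both knockdowns, at a median log2 fold change of -2.40 with ZMYND11 kd1 and -1.79 with ZMYND11 kd2. Over all genes tested 39.8% and 36.9% were lower, and 4457 of 16510 were lower in both. The list includes PCNA, the sliding clamp (-1.19 and -0.83), MCM4 (-1.66 and -1.47) and MCM7 (-1.86 and -1.51) of the replicative helicase, and CDC45, which activates it (-6.09 and -4.10). The S phase genes, normally expressed along with these histone genes, thus fell where most tested histone members rose, and the part of the cell cycle in the histone result was not tested.

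Of 19 genes of histone mRNA synthesis and 3′ end processing, 9 were higher and 8 lower in ZMYND11 kd1, and 8 higher and 6 lower in ZMYND11 kd2. These counts lie near the shares over all genes tested, 38.2% higher and 39.8% lower with ZMYND11 kd1 and 36.5% and 36.9% with ZMYND11 kd2, so they are no result about the list. The lower genes included some that act in S phase transcription. CASP8AP2, a component of histone locus bodies, had log2 fold changes of -3.40 ± 0.22 and -2.23 ± 0.19 (SE), CCNE2 of -3.33 and -2.12, and CDK2 of -1.62 and -1.60. NPAT itself was lower in ZMYND11 kd1 (-0.56 ± 0.11, adjusted p = 0.000332, edgeR) and did not pass in ZMYND11 kd2 (0.12 ± 0.11, adjusted p = 0.303, edgeR). Its ZMYND11 kd1 value came to -0.07 once GC content and length were corrected for. The higher genes included Sm proteins shared with the spliceosome, such as SNRPB (1.45 and 1.05), SNRPE (1.21 and 0.65) and SNRPG (1.5 and 1.16), and LSM10 of the U7 particle (1.45 and 1.05), whose partner LSM11 was lower (-0.98 and -0.89). With that correction, LSM10 and LSM11 came to 0.59 and -0.60 in ZMYND11 kd1, and SNRPE to 0.37 in ZMYND11 kd2. CPSF2, of the cleavage complex, was higher by 0.63 and 1.10, the first being 1.36 with the correction and 0.27 with library totals. SLBP passed in neither (-0.02 ± 0.07 and -0.08 ± 0.07, adjusted p = 0.834 and 0.354, edgeR), while its values were -0.43 and -0.27 with the correction and -0.37 and -0.25 with library totals.

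Of 6 genes of histone mRNA decay, 1 was higher and 3 lower in ZMYND11 kd1, and 2 were higher and 1 lower in ZMYND11 kd2, no larger a share than the 78.0% and 73.4% of all genes tested that passed. ERI1, the exonuclease that trims the stem-loop end, was lower by log2 fold changes of -2.24 ± 0.16 and -0.47 ± 0.13 (SE). XRN1, the cytoplasmic 5′ exonuclease, was lower in ZMYND11 kd1 (-1.23 ± 0.09, or -0.53 with the GC and length correction) and not past the threshold in ZMYND11 kd2 (-0.08 ± 0.09). LSM1 was higher in both (0.90 and 0.99, the first 0.48 with that correction). EXOSC10 of the nuclear exosome passed as lower in ZMYND11 kd1 (-0.27, or -0.05 with the GC and length correction) and did not pass in ZMYND11 kd2 (-0.06). UPF1, the helicase needed for histone mRNA decay, passed in neither (-0.08 and 0.05). Its values were -0.43 and -0.12 with library totals, and -0.08 and 0.24 with the correction.

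Of 13 tested genes of histone supply and chaperoning, 4 were higher and 8 lower in ZMYND11 kd1, and 2 higher and 9 lower in ZMYND11 kd2, while IPO4 was listed at 0. Over all genes tested 38.2% and 36.5% were higher and 39.8% and 36.9% lower. The assembly factors CHAF1B (-3.62 and -3.32) and SSRP1 (-0.81 and -0.89) were lower in both. The paralogs of the H3-H4 chaperone ASF1 diverged, with ASF1A higher (1.44 ± 0.07 and 1.12 ± 0.07, log2, SE) and ASF1B lower (-3.67 ± 0.11 and -3.17 ± 0.11). RBBP4 passed in neither (-0.02 and 0.13), and SUPT16H was 0.18 and -0.17, or -0.17 and -0.34 under library totals alone. The GC and length correction gave 0.53 for RBBP4, 0.58 for SUPT16H and -4.38 for ASF1B in ZMYND11 kd1. In ZMYND11 kd2 it gave 0.30 for RBBP4 and -0.04 for SUPT16H. Among 10 tested replacement histones, which as a class are not confined to S phase, 7 were higher and 1 lower in ZMYND11 kd1. In ZMYND11 kd2, 4 were higher and 4 lower. H3-3B, a gene for H3.3, was higher by 1.74 ± 0.06 and 0.46 ± 0.05, H2AZ1 by 0.33 ± 0.07 and 1.40 ± 0.07, and the centromeric CENPA was lower (-3.52 ± 0.18 and -3.83 ± 0.19). With library totals alone H2AZ1 in ZMYND11 kd1 came to -0.02 (0.05 with the correction) and H3-3B in ZMYND11 kd2 to 0.29.

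The members are short and so could be subject to trends with gene length or GC content. Of the 53, 34 had at most 600 exonic bases, with a range from 387 to 4265. Of 611 other tested genes of at most 1000 exonic bases, 214 were higher and 184 lower in ZMYND11 kd1 (median log2 fold change 0.15), and 165 higher and 188 lower in ZMYND11 kd2 (median -0.17). The summed CPM of these other short genes was 2.66-fold the control in ZMYND11 kd1 and 1.59-fold in ZMYND11 kd2. With each library corrected for both, the median of the tested members was 2.12 in ZMYND11 kd1, with 33 higher, and 1.33 in ZMYND11 kd2, with 24 higher. The corrected log2 fold change of H1-2 was 4.38 and 1.30 in ZMYND11 kd1 and ZMYND11 kd2, that of H2AC6 2.82 and 1.84, and that of H4C9 2.85 and 2.27. The ZMYND11 kd1 values of H2AC11 (2.89), H2AC20 (0.94), H2BC5 (2.72), H2BC18 (2.25), H3C1 (3.27), H3C6 (2.05) and H1-4 (1.76) were lower as well, each still past the threshold. Between the knockdowns, the median came to -1.11 with the correction. There H2AC6 came to -0.98, H2AC8 to -1.16, H2AC11 to -1.07, H4C9 to -0.58, H2BC18 to -1.93 and H1-4 to -1.26.

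**Figure D4:**
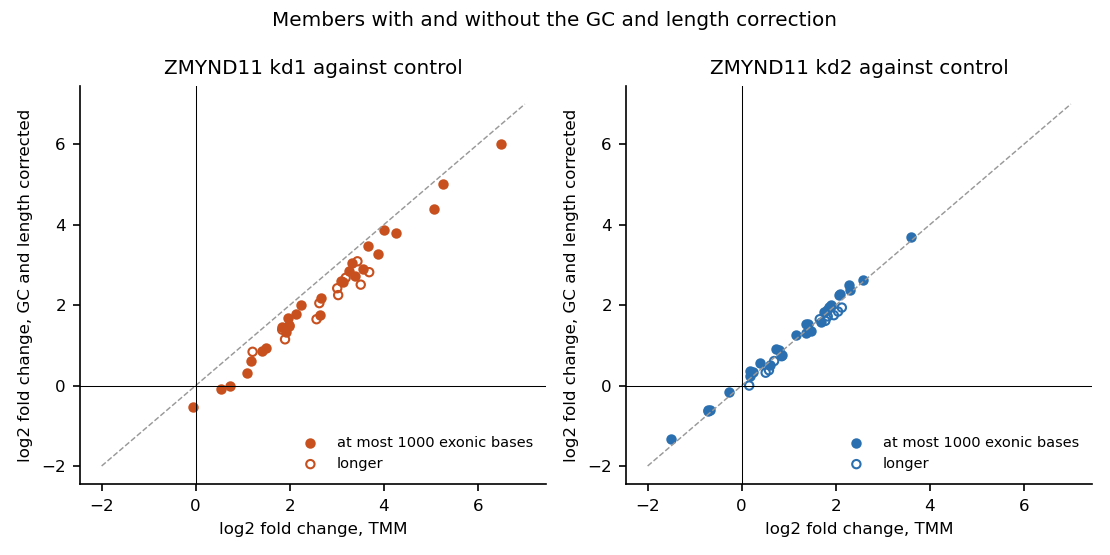
Log2 fold change against control of the tested members as fitted with TMM (horizontal) and with both GC content and length corrected for (vertical), with equal values as the dashed line. In ZMYND11 kd1 all 40 points lie under the line, with a median of 2.12 in place of 2.65, and in ZMYND11 kd2 they lie on both sides of it.

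Scaling by library totals alone shifted the median of all genes tested to -0.38 in ZMYND11 kd1 and -0.20 in ZMYND11 kd2. On that scale the median of the tested members was 2.3 and 1.19, with 33 and 23 higher. Reads of near-identical genes could have been split or dropped when they were counted. Among the members, 12 shared stretches of at least 100 bases with another gene, 10 had exons overlapping another gene, and 32 did neither. Of the 26 tested members free of both, 24 were higher in ZMYND11 kd1 and 14 in ZMYND11 kd2, where H2AC20 was lower, with medians of 2.87 and 1.39. Over all genes tested 38.2% and 36.5% were higher. Equal counts in all libraries were found between no member and any other gene.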

How the data were processed

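Per the labels and methods, the authors assessed reads with FastQC 0.11.9, trimmed adapters, aligned paired reads of 150 bases to hg38 with STAR 2.7.9a, and deposited raw counts per gene symbol. HTSeq 0.13.5 is among the tools in the submitters' processing notes, while its annotation, strand setting and handling of multiply matching reads are not given in the sources used here. Members and gene lists were chosen with earlier results of these data known. The quasi-likelihood test of edgeR 4.0.16 (R 4.3.3, TMM scaling, all 3 groups in a single fit, 3 residual degrees of freedom) was run on the 16510 genes that filterByExpr kept, with Benjamini-Hochberg adjustment at 0.05 over all genes tested. Positions, lengths, stem-loops and overlaps came from GENCODE 44, which matched 33095 symbols. The text names, per class, the 3 members with the highest CPM per kb and those with the highest and lowest mean log2 fold change. For the lists it names the 3 highest by CPM and the largest rise and fall. Other genes were named after their values were seen. A gene that the rule names among the replacement histones is not reported here. On simulated counts, changes of 1 and 2 on the log2 scale were recovered at 95.9% and 99.0% for ZMYND11 kd1 (16061 genes, 7.14% of calls false) and at 88.6% and 97.9% for ZMYND11 kd2 (16030 genes, 4.12% false). Each simulation changed 200 genes, drawn from those above about 1 CPM in control cells. In the data 78.0% and 73.4% of all genes tested passed, so these rates do not carry over to the data or to members under that level. Alternatives were DESeq2 1.42.0, its size factors, library totals, other filters, a replicate block, the compared groups alone, a lowess correction for GC content and gene length (span 0.3), members of one protein summed, and each library left out. Counts per library, from 26844128 to 38193748, limit the precision of low members.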

Additional observations from a re-analysis of the deposited data

Results flagged for a closer look

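H2AC20 was flagged because the knockdowns moved it in opposite directions. Tested directly, its level in ZMYND11 kd2 against ZMYND11 kd1 had a log2 fold change of -2.21 ± 0.19 (SE, adjusted p = 9.53e-08, edgeR), and the counts were 84 and 93 in control cells, 249 and 266 with ZMYND11 kd1 and 59 and 64 with ZMYND11 kd2. With each library left out, the value lay between -2.35 and -2.05, and with the GC and length correction it was -1.57.

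In the same direct test, 33 of the 40 tested members differed between the knockdowns, 31 of them lower and 2 higher in ZMYND11 kd2, where 68.8% of all genes tested differed. Some of the 40 passed the filter on low counts through the group in which they were high, and of the 27 at the minimum in both control libraries 24 differed, 23 lower and 1 higher. The cause of the difference between the knockdowns was not tested.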

How the results depend on the processing

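The median log2 fold change over the tested members kept its sign in all 3 comparisons under each alternative. The count of members higher in ZMYND11 kd1 was 37 as reported and 33 with DESeq2, library totals or the GC and length correction. Summing members of one protein (22 features) gave 20 higher in ZMYND11 kd1, 14 in ZMYND11 kd2 and 18 lower between the knockdowns (ZMYND11 kd2 against ZMYND11 kd1), and keeping only members without shared sequence or overlap, an alternative chosen after seeing the data, gave 24, 14 and 20, in both cases with fewer features tested. Members higher in ZMYND11 kd2 than in ZMYND11 kd1 numbered 1 with at least 10 counts in every library and 4 with the GC and length correction (H2AC13, H2BC13, H2BC15 and H3C12). Leaving out single libraries, the counts ranged from 33 to 42 higher in ZMYND11 kd1, 22 to 24 higher and 1 to 2 lower in ZMYND11 kd2, and 27 to 33 lower and 1 to 2 higher between the knockdowns. The second lower member, without ZMYND11 kd2 replicate 2, was H4C1 (log2 fold change -5.79).

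Equal replicate numbers did not pair the libraries (correlations of deviations 0.0062, -0.0264 and -0.044). A replicate block gave 34 members higher in ZMYND11 kd1, 24 higher in ZMYND11 kd2 and 31 lower between the knockdowns.

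Of the values of single members under alternatives, 1537 kept direction and call, 65 lost the call, 9 gained it and 20 changed sign. With the GC and length correction, H2AC13 (-0.09) and H3C12 (-0.02) changed sign in ZMYND11 kd1, and H1-3 (0.14), H2BC7 (0.24) and H2BC8 (0.19) between the knockdowns. With library totals, H2BC8 between the knockdowns (0.02) and H2BC11 in ZMYND11 kd2 (-0.01) did. With single libraries left out, the log2 fold change in ZMYND11 kd2 ranged from -2.14 to 0.01 for H2AC14, -0.16 to 0.56 for H2AC16, -0.07 to 0.37 for H2BC11, -0.04 to 0.37 for H3C1, -1.47 to 0.05 for H3C2, -3.21 to 5.12 for H3C3 and -0.11 to 1.17 for H4C3. In ZMYND11 kd1 it ranged from -0.51 to 0.64 for H2BC13, and between the knockdowns from -0.57 to 0.04 for H2BC7, -0.41 to 0.05 for H2BC8 and -0.23 to 0.51 for H4C12. Apart from H2AC13, none of these had passed the test. The cause was not tested. Log2 ratios of the summed CPM of tested members in ZMYND11 kd1 came with the GC and length correction to 4.29 (H1), 2.73 (H2A), 2.82 (H2B), 2.37 (H3) and 2.80 (H4). Low counts limit the 13 members that were not tested.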
